A study of Rattus norvegicus with 8 samples.

Results

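The genes described here are a set of immediate early genes: the zinc finger transcription factor genes Egr1, Egr2 and Egr3, the orphan nuclear receptor genes Nr4a1, Nr4a2 and Nr4a3, and Dusp1, Ier2, Ier3 and Zfp36. Members were taken by gene symbol, as the loci of the deposited table that carry exactly that symbol. Of the 10 symbols 9 were found among the table's 52753 loci, and all 9 passed the filter on low counts. No locus carries the symbol Ier2, so Ier2 was not analysed here.

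RNA was measured by stranded mRNA sequencing of the whole length of the small intestine of Sprague Dawley rats at postnatal day 21. The 4 CF libraries are from rats labelled as having cystic fibrosis, which results from a missing or faulty CFTR, an epithelial anion channel, and the 4 WT libraries from rats labelled wild type. The labels give no treatment, no CF allele, sex, litter or batch, and do not state if the 4 libraries of a group are 4 animals. P-values therefore describe the spread between these libraries, which may be technical. In the table each group's libraries carry the numbers 0 to 3, which only name them.

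Immediate early genes are transcribed within minutes of a signal without new protein synthesis, because the factors that bind their promoters are already present in the cell. Serum response factor at CArG boxes and CREB at cAMP response elements are the best known of these factors, and the kinases ERK and p38 act upstream of them. Several of the products, such as Dusp1 and Zfp36, in turn shut the response down, and the transcripts are short-lived. In the intestine these genes respond to growth factors, stretch, injury and inflammatory signals in epithelial, muscle, nerve and immune cells alike.

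Most of these transcripts had higher levels in the CF libraries, but none passed the threshold over all loci. Of the 9 genes 8 had a positive log2 fold change (CF over WT), as did 49.2% of all tested loci. edgeR's quasi-likelihood test called 0 of the 9 at an adjusted p of 0.05 in either direction, against 0.165% of 16941 loci (28 loci). At an unadjusted p of 0.05, 6 of the 9 (66.7%) were higher in CF, namely Egr1, Egr2, Nr4a1, Dusp1, Ier3 and Zfp36, against 7.94% of all loci in that direction, and 0 of the 9 were lower, against 7.21%. DESeq2 called those same 6 genes and 3.1% of its 18265 loci. Of the 9, limma-voom called 0, beside 0.13% of loci, and limma on log2(FPKM + 1) and log2(FPKM + 0.1) called 0, beside 0.118% and 0.124%. The median log2 fold change of the 9 was 0.80, beside a median of -0.005 over all tested loci. The genes were chosen with earlier results of these data known, so these comparisons with all loci are a description. In whole tissue, more cells of a type and more RNA per cell cannot be told apart.

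The 8 libraries held 15255364 to 20890031 assigned fragments. Cftr was at 97.3 ± 6.40 CPM in CF against 94.8 ± 14.7 CPM in WT (CPM are counts scaled to the effective library size). The groups overlapped, and since the labels name no allele the Cftr level does not check them. On the first principal component, which held 31.3% of the variance, the WT libraries lay between 18.9 and 28.6, CF libraries 1 and 2 at 4.12 and 8.48, and CF libraries 3 and 0 apart from them at -43.6 and -56.9. CF library 0 also had the lowest summed level of 8 enterocyte markers, 7483 CPM, against 12740 to 25180 CPM in the other 7 libraries. That library is the one with the highest value for 6 of the 9 genes described here. Without it, edgeR called 2 of the 9 (Nr4a1 and Ier3) where it called 136 loci in all, and without CF libraries 0 and 3 together 0 of 9, with 6 higher at an unadjusted p of 0.05 in both cases. The share of all loci higher at that unadjusted p was counted only with all libraries, at 7.94%.

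**Figure D1:**
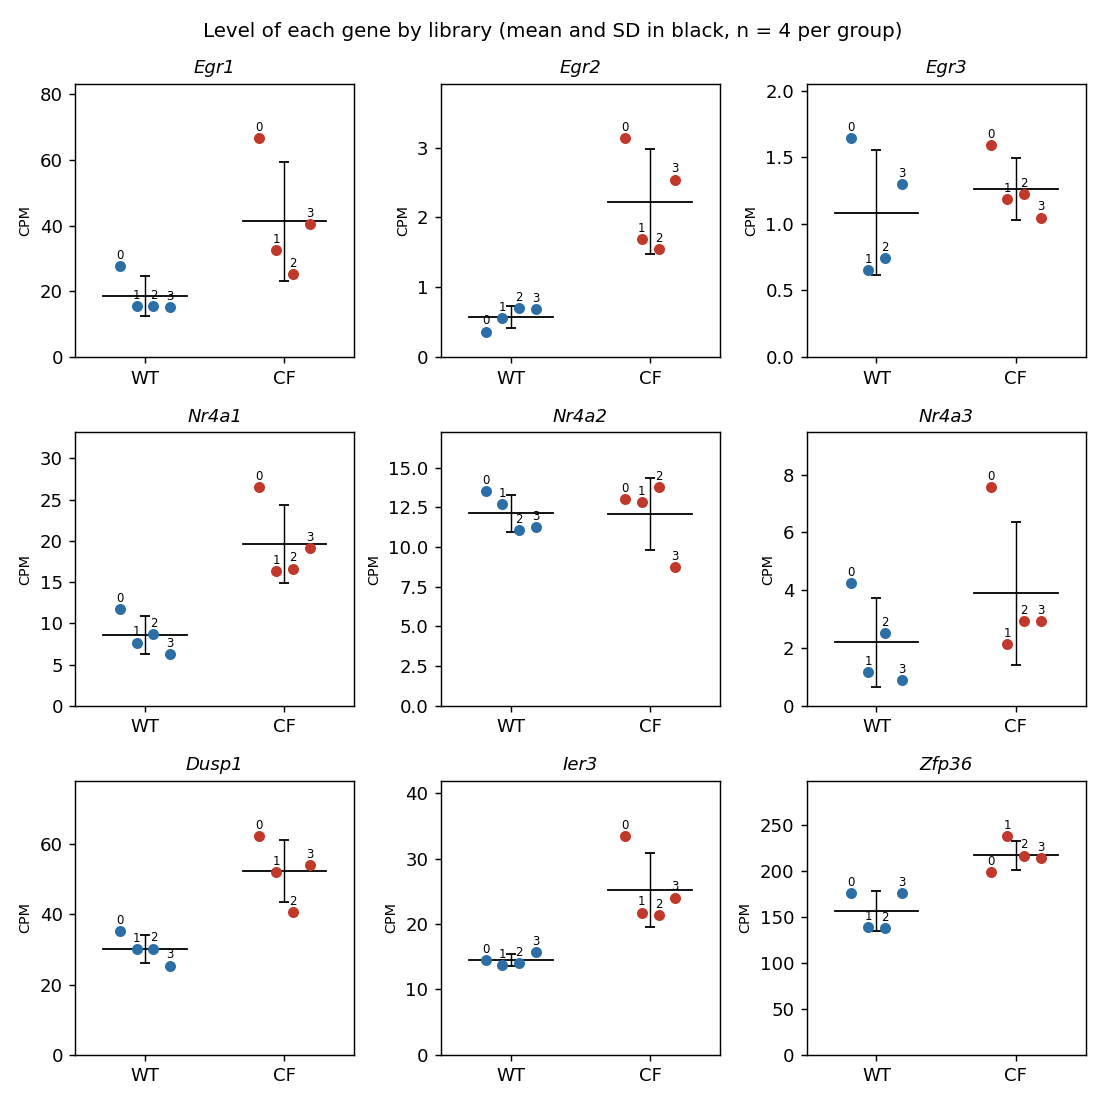
Level of each of the 9 genes in CPM (vertical axis, from 0) in the 4 WT libraries (blue) and the 4 CF libraries (red), with the library number beside each point and the group mean and SD in black. Groups lie apart for Egr2, Nr4a1, Dusp1, Ier3 and Zfp36, and overlap for the other 4 genes.

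Egr1, Egr2 and Egr3 encode zinc finger transcription factors that bind the same GC-rich element. Egr1 (chromosome 18, 27657627 to 27661429, 1 start site) was at 66.5, 32.6, 25.3 and 40.4 CPM in CF libraries 0 to 3 and at 27.7, 15.6, 15.5 and 15.3 CPM in WT libraries 0 to 3. WT library 0 was above CF library 2, so the groups overlapped, while the other 3 WT libraries were nearly level. The means were 41.2 ± 18 CPM in CF against 18.5 ± 6.13 CPM in WT (SD, n = 4 each). The log2 fold change was 1.16 (95% interval 0.44 to 1.88, SE 0.32), with an adjusted p of 0.162 in edgeR's quasi-likelihood test. On the authors' FPKM, fragments scaled to transcript length and depth by Cuffdiff, the groups lay apart for Egr1, at 9.21 to 23.3 in CF and 4.27 to 8.62 in WT.

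Egr2, needed for peripheral nerve myelination and also induced in activated lymphocytes, had the largest log2 fold change of the 9 genes and was among the least abundant. The locus (chromosome 20, 22454462 to 22459025) was at 3.13, 1.69, 1.54 and 2.54 CPM in CF libraries 0 to 3 and at 0.365, 0.552, 0.699 and 0.683 CPM in WT libraries 0 to 3. Every CF library was above every WT library. These levels rest on 29 to 65 fragments per library in CF and on 6 to 15 in WT. Egr2 had a log2 fold change of 1.94 (95% interval 1.21 to 2.68, SE 0.33), a 3.84-fold higher level in CF, with an adjusted p of 0.0564 in edgeR's test. Leaving out 1 library at a time gave log2 fold changes of 1.73 to 2.08 and adjusted p-values of 0.0426 (without CF library 2, the call it gained) to 0.212.

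Egr3, a close relative of Egr1 induced by the same signals, was at 1.05 to 1.59 CPM in CF against 0.652 to 1.64 CPM in WT. The groups overlapped fully at these low levels, which rest on 13 to 33 fragments per library. This gave a log2 fold change of 0.24 (95% interval -0.51 to 0.99), and 0.05 to 0.51 with 1 library left out (without WT library 1 and WT library 0). Egr4 is in the table but did not pass the filter on low counts.

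The promoters of Egr1 and Egr2 are shown because both genes are textbook targets of serum response factor. Each sequence is the 250 bases before the gene's start in RefSeq on build GRCr8, another build than that of the files, so these coordinates are not those of the deposited loci. Capitals mark CArG boxes and TGACG, the core of the cAMP response element, on either strand.
Egr1 promoter (chr18:26736828-26737077, plus strand): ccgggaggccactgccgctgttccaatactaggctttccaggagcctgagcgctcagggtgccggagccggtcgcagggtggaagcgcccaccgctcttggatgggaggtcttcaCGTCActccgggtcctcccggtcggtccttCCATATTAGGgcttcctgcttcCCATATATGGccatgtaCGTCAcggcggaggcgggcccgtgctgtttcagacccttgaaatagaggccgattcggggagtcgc
Egr2 promoter (chr20:21054442-21054691, minus strand): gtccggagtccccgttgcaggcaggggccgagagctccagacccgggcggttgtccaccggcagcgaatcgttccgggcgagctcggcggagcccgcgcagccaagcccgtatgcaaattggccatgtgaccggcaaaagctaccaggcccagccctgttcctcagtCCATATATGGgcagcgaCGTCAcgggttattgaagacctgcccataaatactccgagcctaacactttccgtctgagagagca
The Egr1 window held 2 CArG boxes, CCATATTAGG at -105 to -96 and CCATATATGG at -83 to -74 counted from the start, and the Egr2 window held 1, CCATATATGG, also at -83 to -74. In both windows TGACG also stood on the reverse strand at -66 to -62, and in the Egr1 window also at -135 to -131. Of 33469 RefSeq windows of the same length 1.5% held a CArG box and 18.2% held TGACG on either strand. A match of letters is a description of the sequence and does not show binding in these samples.

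Nr4a1, Nr4a2 and Nr4a3 encode nuclear receptors whose activity is set mostly by how much of them is made. Nr4a1 (chromosome 7, 142903672 to 142920216, 3 start sites) was at 26.5, 16.3, 16.7 and 19.1 CPM in CF libraries 0 to 3 and at 11.7, 7.68, 8.66 and 6.28 CPM in WT libraries 0 to 3. All 4 CF libraries were above all 4 WT libraries, with CF library 0 the highest. Nr4a1 had a log2 fold change of 1.20 (95% interval 0.72 to 1.67, SE 0.22), a 2.29-fold higher level in CF, with an adjusted p of 0.0598 in edgeR's test. Leaving out 1 library at a time gave adjusted p-values of 0.0444 to 0.226, under the threshold without CF library 0 (0.0483) and without WT library 0 (0.0444).

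Nr4a2, best known for its role in dopamine neurons, did not show this difference. The locus (chromosome 3, 43111239 to 43128537, 3 start sites) was at 13, 12.9, 13.8 and 8.73 CPM in CF libraries 0 to 3 and at 13.5, 12.7, 11.1 and 11.3 CPM in WT libraries 0 to 3. It is among 3 loci listed on that span, the others without a gene name. Its fragments thus depend on how the authors' counting divided that region. The groups overlapped, and CF library 3 was the lowest of the 8. The log2 fold change was -0.01 (SE 0.16). Its 95% interval of -0.36 to 0.35 corresponds to levels in CF between 0.780 and 1.27 times those in WT. Its sign changed under 6 of 18 alternatives, so no direction is given.

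Nr4a3 was at 7.57, 2.14, 2.93 and 2.94 CPM in CF libraries 0 to 3 and at 4.26, 1.15, 2.52 and 0.887 CPM in WT libraries 0 to 3. In both groups library 0 was the highest, the numbers being names only, and the groups overlapped. The log2 fold change of 0.82 had an SE of 0.54 (95% interval -0.39 to 2.04) and an adjusted p of 0.505 in edgeR's test. It was 0.28 without CF library 0 and 1.34 without WT library 0, where the unadjusted p was 0.0309 in edgeR.

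The Nr4a1 and Nr4a2 promoters are printed side by side as a description of the sequence. Any part of these sequences in the CF to WT values was not tested. As above, capitals mark TGACG on either strand in the 250 bases before the RefSeq start (GRCr8).
Nr4a1 promoter (chr7:134259888-134260137, plus strand): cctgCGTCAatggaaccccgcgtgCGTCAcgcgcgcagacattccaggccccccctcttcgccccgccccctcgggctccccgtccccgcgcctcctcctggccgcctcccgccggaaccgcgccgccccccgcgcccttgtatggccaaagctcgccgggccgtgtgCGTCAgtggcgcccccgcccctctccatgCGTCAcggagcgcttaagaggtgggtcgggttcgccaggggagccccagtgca
Nr4a2 promoter (chr3:62104888-62105137, minus strand): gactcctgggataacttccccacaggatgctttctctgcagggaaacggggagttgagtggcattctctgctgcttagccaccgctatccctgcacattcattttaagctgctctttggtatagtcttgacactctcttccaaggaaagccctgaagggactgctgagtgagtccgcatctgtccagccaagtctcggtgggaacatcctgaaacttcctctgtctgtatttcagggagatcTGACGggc
The Nr4a1 window held TGACG on the reverse strand 4 times, with starts at -246, -226, -82 and -53, and the Nr4a2 window held TGACG on the gene's own strand, at -8 to -4 and nowhere else. The GC content was 74.8% and 52.0%. Neither window held a CArG box. The deposited loci for both genes have 3 start sites while RefSeq's window stands at 1, so a window may not lie at the start used in these samples.

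A scaling factor common to all genes of a library cancels in ratios between paralogs. Ratios of FPKM still depend on how Cuffdiff scaled each gene in each library. Those with Nr4a2 also depend on how fragments were divided among the 3 loci on its span. The log2 ratio of Nr4a1 to Nr4a2, on FPKM, was 1.75, 0.22, 0.60 and 1.11 in CF libraries 0 to 3 and 0.12, -0.80, -0.09 and -0.63 in WT libraries 0 to 3. Every CF library had a higher ratio than any WT library. The difference in mean log2 ratio was 1.27 (0.99 to 1.5 with 1 library left out), with p = 0.0286 by exact permutation (two-sided), the smallest p that 4 against 4 libraries allows. This pair was chosen after the values were seen, which the p does not take into account. Of the 3 Nr4a transcripts, Nr4a1 made up 51.7% to 70.3% of their summed FPKM in CF and 35.4% to 47.3% in WT, and Nr4a2 21.0% to 44.2% in CF and 43.4% to 61.6% in WT.

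Among the Egr genes the ratio of Egr2 to Egr3 differed in the same way. Its log2 value was 0.66, -0.17, -0.97 and 0.63 in CF libraries 0 to 3 and -2.80, -1.03, -1.93 and -1.24 in WT libraries 0 to 3. The groups lay apart by a narrow margin, -0.97 against -1.03, and the difference in means was 1.79 (exact permutation p = 0.0286). Egr2 and Egr3 had 11 and 13 fragments in WT library 1 (-1.03) and 15 and 16 in WT library 2 (-1.93). The FPKM ratio thus did not follow the fragments alone. Egr2 to Egr1 had a difference of 0.81 (exact permutation p = 0.0286), and it was 0.45 without WT library 0, where this ratio was -6.31 on 6 fragments of Egr2. Egr1 to Egr3 gave 0.97 (exact permutation p = 0.0571), Nr4a3 to Nr4a2 0.97 (exact permutation p = 0.2571) and Nr4a1 to Nr4a3 0.30 (exact permutation p = 0.4571). These 6 ratios were chosen after the values were seen, and with Benjamini-Hochberg adjustment over the 6 exact permutation tests the 3 smallest p-values became 0.0571, which misses 0.05. The adjustment does not cover that choice, and 0.0286 is the lowest p that each of these tests could give. Egr1 made up 88.3% to 93.4% of the summed Egr1, Egr2 and Egr3 FPKM in CF and 86.9% to 91.2% in WT.

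**Figure D2:**
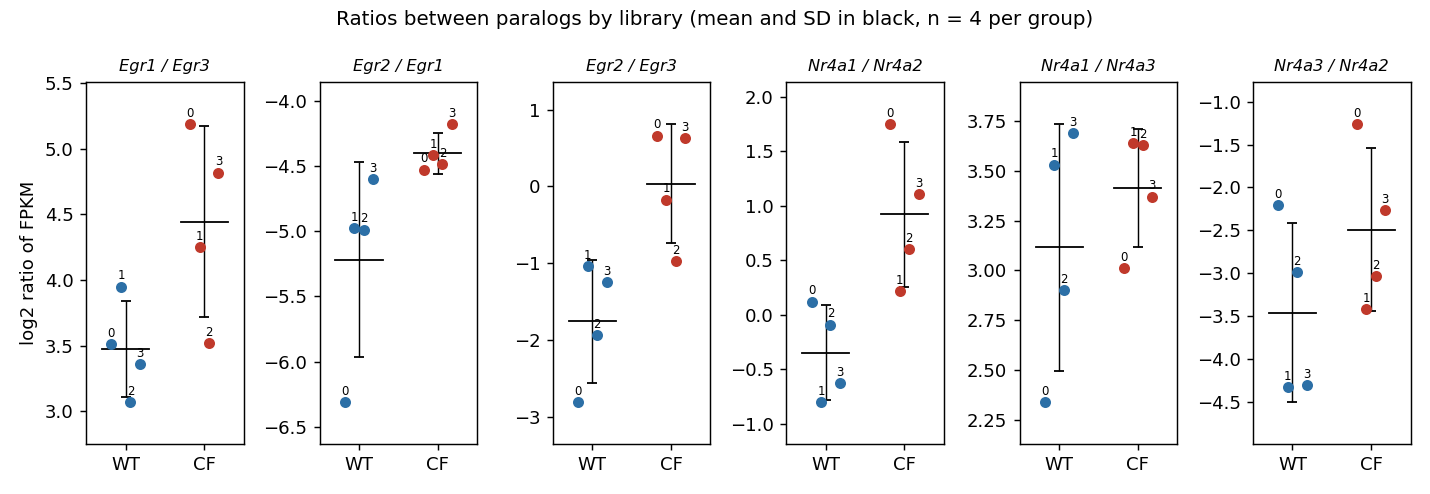
Log2 ratios of FPKM between paralogs (vertical axes, each panel with its own scale) in the 4 WT (blue) and 4 CF (red) libraries, with library numbers and the group mean and SD in black. Groups lie apart for Egr2 to Egr1, Egr2 to Egr3 and Nr4a1 to Nr4a2, and overlap in the other 3 panels.

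Dusp1, Ier3 and Zfp36 encode proteins that act after the signal. Dusp1 is a phosphatase that switches off the MAP kinases p38, JNK and ERK. Its locus (chromosome 10, 16969967 to 16973424) was at 62.4, 52.1, 40.8 and 54.1 CPM in CF libraries 0 to 3 and at 35.2, 30.1, 30.3 and 25.4 CPM in WT libraries 0 to 3. All CF libraries were above all WT libraries. Dusp1 had a log2 fold change of 0.79 (95% interval 0.47 to 1.11, SE 0.14), with an adjusted p of 0.0635 in edgeR's test, and 0.0287 to 0.226 with 1 library left out, under the threshold without CF library 2.

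Ier3, a stress-inducible regulator of cell survival, was at 33.5, 21.7, 21.4 and 24.0 CPM in CF libraries 0 to 3. The WT libraries 0 to 3 were at 14.5, 13.7, 14.1 and 15.7 CPM, a spread of 0.870 CPM (SD) against 5.66 CPM in CF. The groups lay apart, and CF library 0 stood above the other 3 CF libraries. The log2 fold change was 0.80 (95% interval 0.46 to 1.14, SE 0.15) with an adjusted p of 0.0689 in edgeR's test, and 0.63 without CF library 0, where the adjusted p was 0.0382. With 1 library left out in turn the adjusted p ran from 0.0382 to 0.231. The locus lies on chromosome 20, 3438797 to 3440769.

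Zfp36, which encodes tristetraprolin, a protein that binds AU-rich elements and speeds the decay of inflammatory mRNAs, was the most abundant of the 9. It was at 199, 238, 217 and 214 CPM in CF libraries 0 to 3 and at 176, 139, 137 and 175 CPM in WT libraries 0 to 3. On this scale the groups lay apart, and CF library 0 was the lowest CF library here, unlike for the other genes of the set that lay apart. On CPM the log2 fold change was 0.47 (95% interval 0.20 to 0.74, SE 0.12), with an adjusted p of 0.134 in edgeR's test. On FPKM the groups overlapped, at 88.6 to 127 in CF and 72.3 to 99.0 in WT. The locus is listed on chromosome 1, 85368287 to 85382809, a span it shares with 5 other loci, Med29 among them, so its fragments depend on how the authors' counting divided that region.

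Dusp1 and Zfp36 are shown because they carry different elements in the same 250 bases (RefSeq, GRCr8), with capitals as before.
Dusp1 promoter (chr10:17184603-17184852, plus strand): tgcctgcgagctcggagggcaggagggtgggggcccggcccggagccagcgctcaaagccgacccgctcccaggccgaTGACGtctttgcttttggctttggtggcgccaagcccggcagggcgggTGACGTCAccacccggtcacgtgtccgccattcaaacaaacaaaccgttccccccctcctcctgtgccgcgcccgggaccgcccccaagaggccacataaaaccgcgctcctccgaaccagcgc
Zfp36 promoter (chr1:92799109-92799358, minus strand): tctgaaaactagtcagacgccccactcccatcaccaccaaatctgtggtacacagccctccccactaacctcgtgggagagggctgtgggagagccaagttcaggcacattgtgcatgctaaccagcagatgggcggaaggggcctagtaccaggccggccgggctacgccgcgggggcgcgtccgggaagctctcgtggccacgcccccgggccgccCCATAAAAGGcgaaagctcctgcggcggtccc
The Dusp1 window held the full palindrome TGACGTCA at -124 to -117, which 1.59% of the 33469 windows hold and which contains TGACG on both strands, and a further TGACG at -172. The Zfp36 window held a CArG box, CCATAAAAGG, at -32 to -23 and no TGACG. It also held the Egr element GCGNGGGCG, searched on both strands, at -79 to -71, as did the Nr4a1 window at -73 to -65 on the reverse strand, against 4.29% of all windows. Of the 6 members with a RefSeq window, 3 held a CArG box, 5 held TGACG and 2 held the Egr element. Egr3, Nr4a3 and Ier3 have no entry.

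Groups did not overlap, with CF higher, in 5 of the 9 genes on CPM, against 4.86% of all loci (3.91% lay apart with CF lower), and in 5 of the 9 on FPKM, against 2.24%. Egr2, Nr4a1, Dusp1 and Ier3 lay apart on both scales, Zfp36 on CPM alone and Egr1 on FPKM alone. The 2 scales differ in how libraries are scaled to each other and in how transcript length enters.

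**Figure D3:**
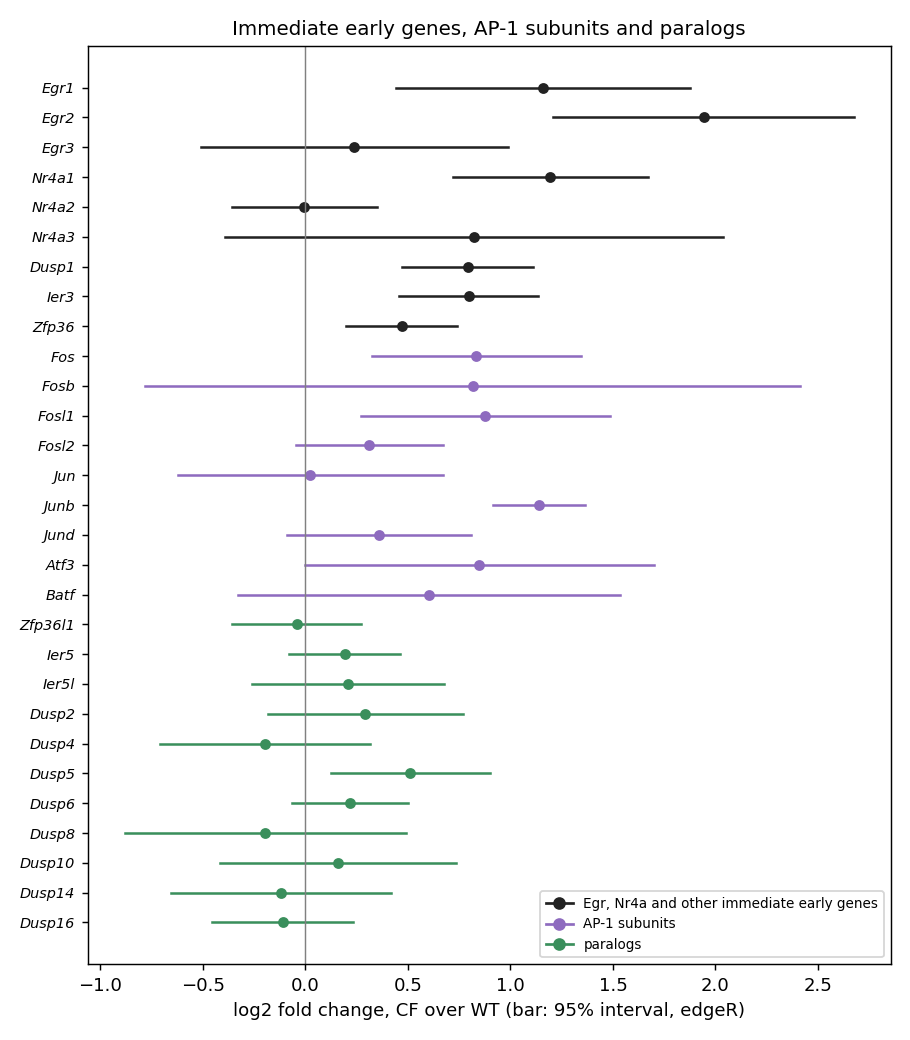
Log2 fold change of CF over WT (horizontal axis) with its 95% interval from edgeR for the 9 genes (black), 9 AP-1 subunits (purple) and 11 paralogs (green). Intervals lie above 0 for 6 of the 9 genes, while Egr3, Nr4a2 and Nr4a3 span 0.

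Levels between genes can be compared per transcript length. By mean FPKM over the 8 libraries the order was Zfp36 (98.9), Ier3 (21.2), Dusp1 (18.5), Egr1 (9.37), Nr4a1 (4.96), Nr4a2 (3.62), Nr4a3 (0.560), Egr3 (0.560) and Egr2 (0.375). The ranges over the 8 libraries lay apart between Zfp36 and Ier3 and between Nr4a2 and Nr4a3, and overlapped for the other 6 pairs of neighbours. Within a library Egr1 was above Nr4a1 and Dusp1 above Egr1 in 8 of 8 libraries, whereas Nr4a1 was above Nr4a2 in 5 of 8.

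**Figure D4:**
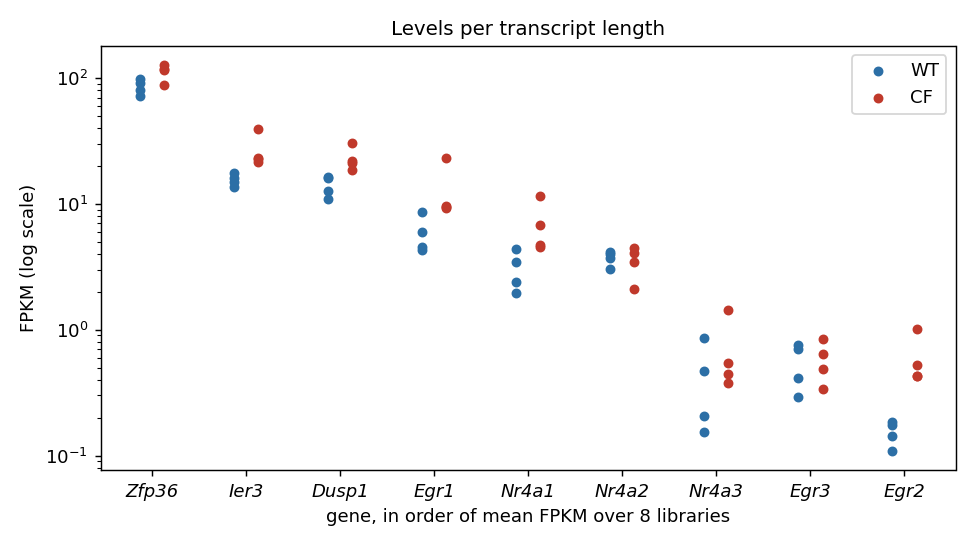
FPKM per library (vertical axis, log scale) for the 9 genes in order of their mean over the 8 libraries, with WT in blue and CF in red. Zfp36 lies above the other 8 genes, and Nr4a3, Egr3 and Egr2 lie below the rest.

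The mean level of the 9 genes differed between libraries, also within a group. After each gene's log2 CPM was centred on its mean over the 8 libraries, the mean of the 9 was 0.84, 0.24, 0.19 and 0.33 in CF libraries 0 to 3 and -0.07, -0.59, -0.42 and -0.52 in WT libraries 0 to 3. CF library 0 was above its genes' means for 9 of 9 genes, and WT library 2 for 0 of 9. WT library 0 had the highest mean of the WT libraries, with Egr3 at its highest of all 8 libraries there and Egr2 at its lowest. The genes closest to this mean profile were Dusp1 and Ier3, with root mean square differences of 0.14 and 0.15 log2 units over the 8 libraries. The farthest was Egr2 (0.61), with as few as 6 fragments in a library. The profile includes each gene itself and the difference between the groups, so these distances are a description.

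Among all other tested loci with a gene name, those with the smallest differences from that profile included Ppp1r15a (0.12), PVR (0.14), Epha2 (0.16) and Maff (0.16). Ppp1r15a, the phosphatase subunit that reverses the integrated stress response, was at 33.6 ± 11.5 CPM in CF against 19.1 ± 2.79 CPM in WT. Maff, a small Maf transcription factor, was at 12.6 ± 3.07 CPM in CF against 6.56 ± 0.955 CPM in WT. The Maff locus is among 8 listed on the same span, Csnk1e and Pla2g6 included. Both Ppp1r15a and Maff are themselves immediate early genes and belong to the wider list below. Epha2, an ephrin receptor gene, was at 59.6 ± 7.0 CPM in CF against 39.2 ± 8.71 CPM in WT. These loci were picked for library values close to a mean that is itself higher in CF, so their direction follows from that choice and is given as a description with no test.

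**Figure D5:**
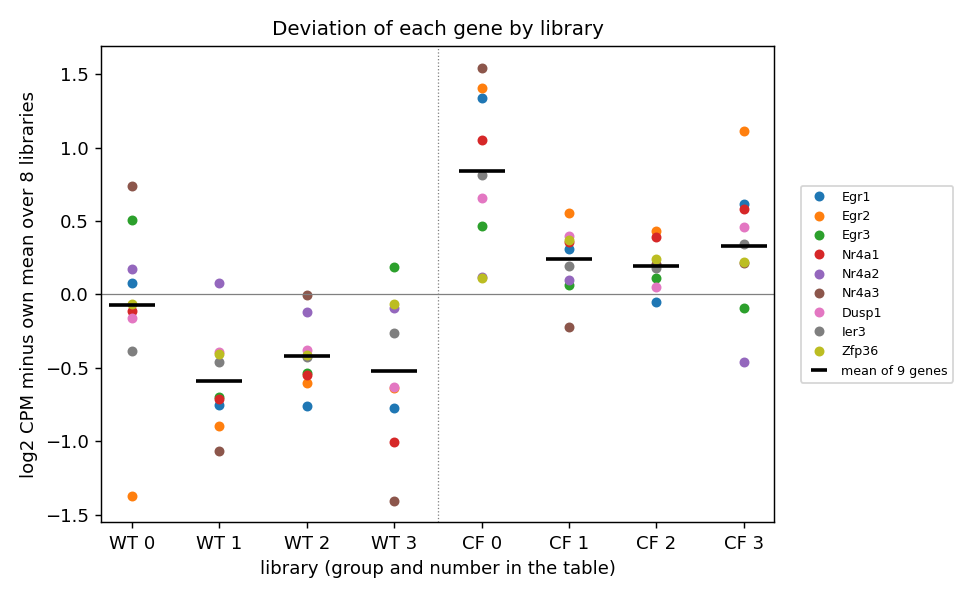
Log2 CPM of each of the 9 genes minus its own mean over the 8 libraries (vertical axis) in each library (horizontal axis), with the mean of the 9 genes as a black bar. The mean is highest in CF library 0 at 0.84 and lowest in WT library 1 at -0.59, and WT library 0 at -0.07 is the highest WT library.

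The AP-1 subunits, which dimerize into the other large class of immediate early transcription factors, were tested alongside. All 9 had positive log2 fold changes (49.2% of all tested loci did), with a median of 0.82. In edgeR 1 of 9, Junb, passed an adjusted p of 0.05, beside 0.165% of loci. At an unadjusted p of 0.05, 3 of 9 (Junb, Fos and Fosl1) were higher, beside 7.94% of loci. Junb was at 88.3 ± 9.50 CPM in CF against 40.1 ± 1.92 CPM in WT, which gave a log2 fold change of 1.14 with an SE of 0.10 (edgeR adjusted p = 0.00147). Junb lost its call in limma on log2(FPKM + 1) (adjusted p 0.0625) and log2(FPKM + 0.1) (adjusted p 0.0615), and was called under the other 16 alternatives, with an adjusted p as low as 1.00e-17 in DESeq2. The log2 fold change of Junb was below that of Egr2 and close to those of Nr4a1 and Egr1, but its SE was smaller. Jund was at 141 ± 42.5 CPM in CF against 110 ± 9.47 CPM in WT, and Fosl2 at 136 ± 25.3 and 110 ± 18.9 CPM.

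Of 42 further immediate early genes, 41 were tested, and 35 had positive and 6 negative log2 fold changes. None passed edgeR's adjusted p of 0.05, and the median log2 fold change was 0.36. At an unadjusted p of 0.05, 19 were higher and 1 lower, beside 7.94% and 7.21% of all loci. The most abundant gene there, the kinase gene Sgk1, was at 377 ± 171 CPM in CF against 361 ± 74.5 CPM in WT, and Btg1, an antiproliferative gene, at 183 ± 12.3 and 166 ± 12.1 CPM. Both groups overlapped for these 2 genes, and the sign of Sgk1 changed under 8 of 18 alternatives.

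Of 11 paralogs of the set that were tested, 6 had positive and 5 negative log2 fold changes, with a median of 0.16. In edgeR 0 passed an adjusted p of 0.05 and 1 (Dusp5, higher) an unadjusted p of 0.05, beside 7.94% of all loci in that direction. Zfp36l1, a relative of Zfp36, was at 130 ± 20.2 CPM in CF against 134 ± 20.4 CPM in WT, with a log2 fold change of -0.04 (SE 0.14) whose sign changed under 3 of 18 alternatives. Dusp6, the phosphatase that acts on ERK, was at 52.5 ± 7.63 CPM in CF against 45.2 ± 5.44 CPM in WT, with a log2 fold change of 0.22 (SE 0.13).

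Transcripts of partner proteins were measured as well. Of 5 genes for corepressors and partners, 0 passed edgeR's adjusted p of 0.05. At an unadjusted p of 0.05, 1 was higher and 1 lower, beside 7.94% and 7.21% of all loci. The higher one was Nab1, a corepressor that binds Egr proteins, at 37.5 ± 9.89 CPM in CF against 22.0 ± 1.97 CPM in WT (log2 fold change 0.77, SE 0.18). Nab1 was named after its values were seen. The lower one was Rxrb, a retinoid X receptor gene whose product can pair with Nr4a1 and Nr4a2, at 35.5 ± 4.51 CPM in CF against 42.4 ± 0.813 CPM in WT (log2 fold change -0.26, SE 0.11). Rxrb had an unadjusted p under 0.05 in 6 of 18 alternatives, not in DESeq2 (0.0560) or without CF libraries 0 and 3 (0.314), and its groups overlapped on FPKM. Rxra was at 62.0 ± 7.52 CPM in CF against 56.0 ± 4.93 CPM in WT.

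Of 13 tested kinases and transcription factors upstream of these genes, 0 passed the adjusted threshold in edgeR, and the median log2 fold change was 0.21. At an unadjusted p of 0.05, 2 were higher and 1 lower, beside 7.94% and 7.21% of all loci. Mapk3, which encodes ERK1, was at 467 ± 96.6 CPM in CF against 443 ± 38.9 CPM in WT. Map2k2, the kinase above it, was at 294 ± 62.4 and 239 ± 26.6 CPM. Transcript levels of kinases say nothing of their activity.

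Among 11 mRNAs known to be bound by Zfp36, Ier3 included, only 5 passed the filter on low counts, and 4 of these had positive log2 fold changes. None passed edgeR's adjusted p of 0.05, and 1, Ier3, was higher at an unadjusted p of 0.05, beside 7.94% of all loci. The chemokine gene Ccl2 was at 13.4 ± 9.60 CPM in CF against 6.65 ± 2.19 CPM in WT, with overlapping groups. CF library 0 was at 27.4 CPM and the other 3 CF libraries at 5.59 to 10.8 CPM, and the log2 fold change of Ccl2 was 1.02, or 0.40 without CF library 0. The growth factor gene Vegfa was at 92.5 ± 10.6 CPM in CF against 109 ± 10.5 CPM in WT.

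Heat shock genes, another class of rapidly induced transcripts, had a median log2 fold change of 0.15 over 11 tested members, with 9 positive. None passed edgeR's adjusted p of 0.05 and 3 were higher at an unadjusted p of 0.05, beside 7.94% of all loci. Hsp90ab1 was at 1197 ± 242 CPM in CF against 1055 ± 100.3 CPM in WT and Hspa8 at 766 ± 108 and 728 ± 226 CPM, with overlapping groups for both.

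Summed levels of markers of other cell types differed between the groups too. Both tested neutrophil markers, S100a9 and Csf3r, had positive log2 fold changes, and the summed level of all 5 listed neutrophil markers was 37.7, 4.18, 3.57 and 13.3 CPM in CF libraries 0 to 3 against 0.887 to 2.80 CPM in WT. CF libraries 0 and 3 had the highest neutrophil sums and also the highest mean of the 9 genes. The 4 tested smooth muscle markers summed to 4660 to 6218 CPM in CF against 2807 to 4195 CPM in WT, with no overlap, and 7 goblet cell markers to 10140 to 15000 CPM and 6579 to 11600 CPM, with overlap. Endothelial markers (4 of 4 negative, with sums that overlapped at the edge, 60.9 to 95.4 CPM in CF against 95.2 to 124 CPM in WT) and red cell markers (5 of 5 negative, 90.3 to 127 CPM in CF against 154.5 to 352 CPM in WT, with no overlap) had negative log2 fold changes. The sums of 5 macrophage, 4 mast cell, 6 lymphocyte, 7 neuron and glia and 8 enterocyte markers overlapped between the groups. All 7 neuron and glia and all 4 mast cell markers had negative log2 fold changes, as did 8601 of 16941 loci. Of these, 2 and 0 were lower at an unadjusted p of 0.05 in edgeR, beside 7.21% of loci. The macrophage, lymphocyte and enterocyte markers had both signs. No marker with a locus was at 0 in all 8 libraries. The part of these cell types in the differences of the set was not tested. With CF libraries 0 and 3 left out, the log2 fold changes were 0.65 for Egr1, 1.48 for Egr2 and 0.94 for Nr4a1. With all 8 libraries they were 1.16, 1.94 and 1.20. Without those 2 libraries they were 0.62 for Dusp1, 0.57 for Ier3, 0.54 for Zfp36, 0.17 for Egr3, 0.14 for Nr4a2 and 0.20 for Nr4a3. With all 8 libraries these were 0.79, 0.80, 0.47, 0.24, -0.005 and 0.82 in that order. This alternative was chosen after seeing the data. It leaves out the 2 CF libraries where the mean of the 9 genes was highest, so a fall cannot be tied to the neutrophil sums. The CF libraries kept had neutrophil sums of 4.18 and 3.57 CPM, still above every WT library, so it does not remove that difference.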

How the data were processed

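The submitters' processing notes name bcl2fastq, cutadapt, STAR 2.3.1z, StringTie, Cuffdiff and build Rnor_6.0; their order and settings are not stated there. From the table the authors deposited, the expected counts (fragments assigned to a locus in a library) are unscaled per the file headers; 5.99% of them had a fraction and were rounded for the test. The FPKM values were deposited by the authors after Cuffdiff's scaling by library and transcript length, per the file headers. The table's library numbers (0 to 3) differ from the titles' (1 to 4), so a library's group is known but not its title. Per-library values in 2 other columns had no use here.

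Loci were filtered by filterByExpr of edgeR (minimum count 10, minimum total 15), scaled by TMM and given a robust quasi-likelihood test (edgeR), with Benjamini-Hochberg adjustment over 16941 loci at 0.05. The SE is the log2 fold change over the square root of the F statistic. Log2 CPM used a prior count of 2. The test was tried on simulated counts. Versions were Python 3.11.15 with scipy 1.17.1 and pandas 2.3.3, and R 4.3.3 with DESeq2 1.42.0, edgeR 4.0.16 and limma 3.58.1.

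Locus spans are in Rnor_6.0 as the table lists them, and whether their first base is counted from 0 or from 1 is not stated there. Members were chosen by symbol and lists by name, with earlier results of these data known, and named genes by rule: all members, each called gene of the other lists or else the 2 most abundant, and the 5 loci of most similar profile, of which 1 is not reported here. Other genes named from these lists were chosen after their values were seen. No source used here says whether fragments were counted by strand.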

Additional observations from a re-analysis of the deposited data

Results flagged for a closer look

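In 2 of the 18 groups of 4 libraries examined (9 genes in CF and in WT, on CPM) 1 library lay far from the other 3, where chance gives about 1 in 20. Egr1 in WT library 0 was at 27.7 CPM, with the other 3 WT libraries at 15.3 to 15.6 CPM, and without that library the log2 fold change of Egr1 was 1.42. Nr4a3 in CF library 0 was at 7.57 CPM, with the other 3 CF libraries at 2.14 to 2.94 CPM, and its log2 fold change was 0.28 without that library and 1.34 without WT library 0.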

How the results depend on the processing

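The number of called loci, 28 in edgeR, was 553 of 40061 without the filter on low counts, 566 of 18265 in DESeq2, 47 with CF libraries 0 and 3 left out (an alternative chosen after seeing the data), and 5 (without WT library 1 or 2) to 136 (without CF library 0) with 1 library left out. Of the 9 genes, 0 were called in edgeR, 5 without the filter, 6 in DESeq2 and 0 to 2 with 1 library left out: Nr4a1 and Ier3 without CF library 0, Egr2 and Dusp1 without CF library 2, and Nr4a1 without WT library 0. The cause was not tested. The number higher at an unadjusted p of 0.05 was 5 to 7 under every alternative run, and 8 or 9 of the 9 had positive log2 fold changes. Over all loci these shares were 7.94% and 49.2% in edgeR with all libraries. They were not counted under the alternatives, so no background stands beside those counts. With the library number as a replicate block, 11 loci and 0 of the 9 genes were called. The numbers are not tied to a shared animal, litter or day, and same-numbered libraries deviated from their group means with correlations across loci of 0.0651, -0.106, 0.163 and -0.00826.

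Alternatives were run for 29 genes, and the sign of the log2 fold change changed for 6 of them. Nr4a2 was at 0.033 without the filter, 0.008 in DESeq2, 0.136 with CF libraries 0 and 3 left out and -0.072 to 0.126 with 1 library left out. Zfp36l1 was at 0.103 with CF libraries 0 and 3 left out and -0.143 to 0.05 with 1 left out. Sgk1 was at -0.049 in limma-voom, -0.056 and -0.057 in limma on log2(FPKM + 1) and log2(FPKM + 0.1), -0.042 with the replicate block, -0.05 with CF libraries 0 and 3 left out and -0.137 to 0.297 with 1 left out. Mapk3 was at -0.068 to 0.169 with 1 left out. Hspa8 was at -0.051 with CF libraries 0 and 3 left out and -0.076 to 0.288 with 1 left out, and Hsp90ab1 at -0.029 with CF libraries 0 and 3 left out. The fewest fragments per library were 6 to 65 for Egr2, 13 to 33 for Egr3 and 13 to 157 for Nr4a3.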
